A study of Mus musculus with 48 samples.

Results

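The genes described here are 8 genes of purine signalling: the nucleotide receptors P2ry1 and P2rx7, the adenosine receptors Adora1, Adora2a and Adora2b, the surface enzymes Entpd2 and Nt5e, and the intracellular enzyme Adk. They were picked by symbol from the 24421 gene symbols that each of 6 tables lists, and all 8 were found in every table. The libraries are bulk RNA-seq of mouse cells labelled as astrocytes. Cortex, hippocampus and olfactory bulb (below, the bulb) were sampled at postnatal days P1, P7 and P14, with 3 libraries per group except 4 for cortex at P14, and no genotype or strain is labelled for these. At P28 libraries labelled Gabbr1 control were set against libraries labelled Gabbr1 cKO, a conditional knockout of a subunit of the GABA-B receptor: 4 against 4 in cortex, 2 against 4 in hippocampus and 3 against 3 in the bulb. All P28 hippocampus and bulb libraries, controls included, carry a tamoxifen treatment label, as do 2 control libraries and 1 cKO library of cortex. The other 2 control libraries and 3 cKO libraries of cortex carry no treatment label and belong to an earlier round of deposit by accession, and whether they also had tamoxifen is not given in the sources used here. The Cre driver and the animals' sex are not given in the sources used here. Nothing in the labels says that replicates came from separate animals, so p-values measure only the spread between libraries, which may be technical.

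Astrocytes release ATP and meet ATP and adenosine released by neurons. Outside the cell ATP is cut stepwise: Entpd2 removes a phosphate from ATP to give mainly ADP, and Nt5e (CD73) turns AMP into adenosine. P2ry1 is a G protein-coupled receptor for ADP that raises calcium, and P2rx7 is a cation channel opened by high levels of ATP. Adora1 is an adenosine receptor that lowers cyclic AMP and, on nerve terminals, dampens transmitter release, while Adora2a and Adora2b raise cyclic AMP, the latter at higher adenosine levels. Adk phosphorylates adenosine to AMP inside the cell and is a main route by which astrocytes clear it.

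From P1 to P14 Adora1, Adora2b, Entpd2 and Adk rose in all 3 regions. Their promoter sequences are printed because these 4 share that rise. The share of all tested genes that rose in all 3 regions is not given here, so whether a shared rise is unusual cannot be judged. Shares within each region are given below. Each run is the 250 bases upstream of the RefSeq start (GRCm38.p6), read 5′ to 3′ on the gene's own strand. Capitals mark 3 motifs searched on both strands: the GC box GGGCGG, the CCAAT box CCAAT and the nuclear factor I half-site TTGGC, of which the last and CCAAT can overlap.

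Adora1, chr1:134235458-134235707, minus strand: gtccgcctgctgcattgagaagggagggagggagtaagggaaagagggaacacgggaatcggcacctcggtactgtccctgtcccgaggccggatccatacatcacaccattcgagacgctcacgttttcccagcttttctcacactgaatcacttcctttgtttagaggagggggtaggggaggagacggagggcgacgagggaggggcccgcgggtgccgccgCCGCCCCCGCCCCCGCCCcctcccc
Adora2b, chr11:62248734-62248983, plus strand: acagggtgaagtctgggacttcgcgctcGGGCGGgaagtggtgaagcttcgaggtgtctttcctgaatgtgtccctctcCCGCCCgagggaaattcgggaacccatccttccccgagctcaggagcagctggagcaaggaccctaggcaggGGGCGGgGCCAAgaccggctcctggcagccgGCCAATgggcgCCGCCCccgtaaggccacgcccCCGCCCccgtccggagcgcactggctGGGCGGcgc
Entpd2, chr2:25395624-25395873, plus strand: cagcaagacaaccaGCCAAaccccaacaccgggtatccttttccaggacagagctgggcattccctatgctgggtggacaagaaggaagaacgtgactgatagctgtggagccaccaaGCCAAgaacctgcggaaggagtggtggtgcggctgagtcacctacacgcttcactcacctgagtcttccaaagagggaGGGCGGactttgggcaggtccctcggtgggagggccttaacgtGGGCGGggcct
Adk, chr14:21052324-21052573, plus strand: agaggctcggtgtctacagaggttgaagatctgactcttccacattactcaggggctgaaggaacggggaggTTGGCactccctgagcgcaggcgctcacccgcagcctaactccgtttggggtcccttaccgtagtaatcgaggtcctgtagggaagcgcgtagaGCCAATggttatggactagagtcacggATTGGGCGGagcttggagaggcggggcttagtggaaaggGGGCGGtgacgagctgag

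A promoter was found for 7 of the 8 genes, Adora2a being the one without. The GC box was in 7 of these 7 promoters and in 32.7% of all 32851 promoters of the same length. TTGGC was in 3 of 7 (Adora2b, Entpd2 and Adk) against 41.5% of all promoters, and CCAAT in 2 of 7 (Adora2b and Adk) against 33.8%. The E-box CANNTG was in 4 of 7 (P2rx7, Adora2b, Entpd2 and Nt5e) against 66.2%, the cyclic AMP response half-site TGACG in Adk alone against 17.8%, and neither TATAAA (12.4% of all) nor the SOX core ACAAT (27.7% of all) was in any. The 4 printed promoters had a GC content of 58.8% to 69.6%, where the median of all promoters was 52.4%. A match describes the letters only.

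In the GENCODE M21 annotation (GRCm38, the mm10 build named in the submitters' processing notes) all 8 are protein-coding and values refer to whole genes. P2ry1 is at chr3:61002795-61008982, P2rx7 at chr5:122643911-122691432, Adora1 at chr1:134199223-134235431, Adora2a at chr10:75316877-75334784, Adora2b at chr11:62248984-62266453, Entpd2 at chr2:25395874-25401321, Nt5e at chr9:88327197-88372092 and Adk at chr14:21052574-21448569. Entpd2 shares 612 exonic bases with Npdc1 on the same strand, so reads there could belong to either. Npdc1 had no higher mean at P14 in any region: its mean normalized read count at P1 was 217, 113 and 109 in the 3 regions, and at P14 it was 125, 110 and 50.2. Adora1 shares 1162 exonic bases with Mybph on the opposite strand, and Mybph had at most 4.4 normalized reads in any P1, P7 or P14 library. P2ry1 shares 992 exonic bases with an antisense transcript, and whether reads were counted by strand is not given in the sources used here, so reads of both cannot be told apart.

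Gene-assigned depth over the P1 to P14 libraries was 4828515 to 15008466 reads for cortex, 2539583 to 8986015 for hippocampus and 1773226 to 9062118 for the bulb, and at P28 it was 1859933 to 6352384. Every P14 library of the bulb (1773226 to 2669394 reads) was shallower than every earlier one, whereas hippocampus P14 (2539583 to 4248087 reads) overlapped P7 (4002881 to 5542610 reads). The ribosomal RNA precursor Rn45s took 13.7% to 38.0% of reads in 46 of the 48 libraries but 0.594% in cKO replicate 2 of hippocampus and 0.476% in control replicate 2 of the bulb, both at P28. The astrocyte label was checked on 9 markers, none of which was at 0 in any library. Their summed normalized count in cortex was 18414–24623 at P1 and 473929–534934 at P14; for hippocampus it was 12364–14195 and then 413022–448084, and for the bulb 4618–6609 and then 118968–136004, with 8, 9 and 9 of 9 markers rising. The 8 neuron markers summed to 3431–4147, 1681–1773 and 2841–3491 at P1 and to 209–473, 241–342 and 421–989 at P14. Of these 8, 6, 6 and 5 fell, and 1, Slc17a7, rose in the bulb. The 7 microglia markers of the same regions summed to 230–427, 54.7–76.2 and 5.52–24.7 at P1 and to 748–1606, 92.4–265 and 89.4–230 at P14. Of those tested, 6 of 7, 2 of 3 and 2 of 3 rose, and Trem2 was at 0 throughout P1 in the bulb. The 9 mature oligodendrocyte markers went from 342–405 to 15369–26158, 78.3–96.2 to 1614–2345 and 119–213 to 1937–2260, with Opalin at 0 in every P14 library of hippocampus and the bulb. The 6 endothelial markers of the bulb went from 15.9–23.3 to 268–1090, where 6 of 6 rose; 1 rose in cortex, and 1 rose and 1 fell in hippocampus. The 5 oligodendrocyte precursor markers of the bulb summed to 127–165 at P1, 484–999 at P7 and 1086–1137 at P14, against 1164–1247 and 871–1068 at P1 and P14 for cortex and 359–560 and 859–1005 for hippocampus. The 3 ependymal and choroid plexus markers of hippocampus summed to 41–74.8 at P1 and 3884–7769 at P14, with Ttr rising. In cortex they went from 18.5–1097 to 53.9–661, with Foxj1 falling, and in the bulb from 17.6–25.5 to 34.7–57.9, with Foxj1 rising. The 7 mural and fibroblast markers summed to 117–250 and then 479–1031 in the bulb, where 2 rose. In cortex they went from 75.9–482 to 294–707, with Pdgfrb rising, and in hippocampus from 214–505 to 142–289, with Dcn falling. Single steps could differ from the whole interval: from P1 to P7, 3 neuron markers rose and 0 fell in the bulb and 0 microglia markers were called in cortex, and from P7 to P14, 1 microglia marker fell and 0 rose in hippocampus. The part of these markers in the results below was not tested. In bulk RNA a change in the number of cells of a type and a change in RNA per cell cannot be told apart.

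Values are read counts divided by one factor per library, called normalized read counts below. Genes whose mean over a table was at least 10 were tested, on log2(value + 1), with limma, and a gene was called when its p adjusted over all genes was under 0.05. From P1 to P14, 5 of the 7 purine genes tested in cortex rose, where 24% of all tested genes rose, and none fell. In hippocampus 4 of 6 rose (21% of all tested genes), and in the bulb 5 of 8 rose (24.8% of all tested genes), with none falling in either. The median log2 change of the tested purine genes was 1.43, 2.27 and 2.99, against -0.27, -0.29 and -0.24 for all tested genes. How far the median of all tested genes depended on scaling differed by region. After TMM scaling it was 0.01 in cortex but still -0.26 in hippocampus and -0.24 in the bulb. With quantile normalization it was 0.03, -0.03 and -0.17. Adora1, Adora2b, Entpd2 and Adk kept their direction and call from P1 to P14 in each region under TMM and quantile scaling.

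**Figure D1:**
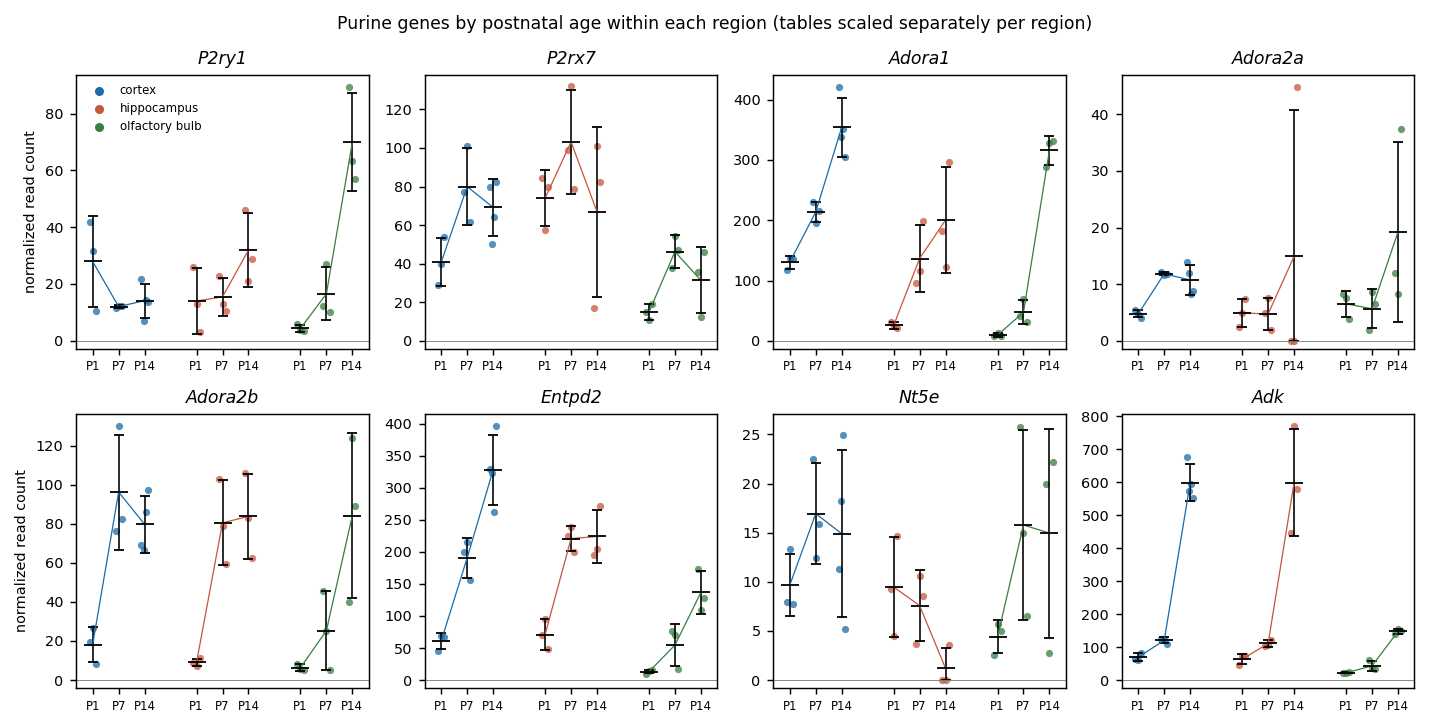
Normalized read counts of the 8 genes at P1, P7 and P14 in cortex, hippocampus and olfactory bulb, with a point per library, a bar at the mean and whiskers of 1 SD that stop at 0. Mean Adk climbs more after P7 than before in cortex and hippocampus (means of 121 and 111 at P7 against 599 in both at P14). In limma this difference between steps passed in cortex only. Adora2b has already reached its P14 range at P7 in those regions, and P2ry1 climbs steeply in olfactory bulb. Regions were scaled separately and cannot be compared in level.

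Of the nucleotide receptors, P2ry1 rose with age in the bulb. Its normalized read counts there were 5.74, 3.96 and 3.31 at P1, 12.3, 27.2 and 10.1 at P7, and 89.4, 63.4 and 56.9 at P14. These 3 ages did not overlap, and each step passed the test: 1.62 on the log2 scale from P1 to P7 (SE 0.46, adjusted p 0.048) and 2.12 from P7 to P14 (SE 0.46, adjusted p 0.00326). The first of these calls was lost when any of the 6 P1 and P7 libraries other than P7 replicate 3 was left out, with adjusted p from 0.0876 to 0.233, and also with a pseudocount of 8 (0.93, adjusted p 0.0798), no filter (adjusted p 0.0729), a minimum mean of 30 (0.0638), TMM (0.0524) and quantile normalization (1.31, adjusted p 0.118). Over the whole interval the change was 3.73 (SE 0.46, adjusted p 5.02e-05), a 16.1-fold higher mean. In hippocampus P2ry1 was 26, 12.9 and 3.07 at P1, 22.9, 13.1 and 10.4 at P7, and 46.2, 20.9 and 28.7 at P14. These ranges overlapped, and the P1 to P14 change of 1.44 (SE 0.69) had an adjusted p of 0.102. It passed at 2.06 (adjusted p 0.042) without P1 replicate 1 and at 1.97 (adjusted p 0.0333) with quantile normalization. In cortex the values were 41.8, 31.5 and 10.5 at P1, 11.5, 12.4 and 12.2 at P7, and 21.6, 6.92, 14.5 and 13.5 at P14. One P1 library was as low as the later ages, and the P1 to P14 change of -0.83 (SE 0.46, adjusted p 0.132) did not pass. Without that library, P1 replicate 3, it was -1.40 with an adjusted p of 0.0138, but with TMM scaling of all libraries it was -0.57 (adjusted p 0.304) and with quantile normalization -0.06 (adjusted p 0.927). No test compared the change of P2ry1 between regions, because each region was scaled on its own.

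P2rx7, the ATP-gated channel, rose from P1 in cortex and was not called at any step in hippocampus or the bulb. In cortex its normalized read counts were 28.7, 39.8 and 53.6 at P1, 77.3, 101 and 61.6 at P7, and 79.8, 50.3, 64 and 82.5 at P14. All P7 libraries lay above all P1 libraries, whereas P1 and P14 overlapped. The change was 0.97 from P1 to P7 (SE 0.27, adjusted p 0.0142) and 0.77 from P1 to P14 (SE 0.26, adjusted p 0.0172). Leaving out P1 replicate 1 ended both calls (0.75 with adjusted p 0.0634, and 0.55 with adjusted p 0.0905), and leaving out P7 replicate 2 ended the first (0.79, adjusted p 0.0716). In hippocampus it was 84.4, 57.5 and 79.9 at P1, 99, 132 and 78.5 at P7, and 17.2, 101 and 82.4 at P14, with overlapping ages and a P1 to P14 change of -0.46 (SE 0.54, adjusted p 0.51). One P14 library was far below the rest, and without it, replicate 1, the change was 0.32 (adjusted p 0.374). In the bulb it was 14.7, 10.6 and 19.3 at P1, 37.5, 54.3 and 46.9 at P7, and 35.8, 12.4 and 45.8 at P14. Its P7 values stood clear of the P1 values, but the change of 1.60 (SE 0.48) had an adjusted p of 0.0581, and the P1 to P14 change was 0.88 (SE 0.48, adjusted p 0.138). The first passed with edgeR (1.63, adjusted p 0.0278) and DESeq2 (1.66, adjusted p 0.00296) on recovered reads, and the second passed at 1.43 (adjusted p 0.00548) without P14 replicate 2, with quantile normalization (1.11, adjusted p 0.0462) and with DESeq2 (1.16, adjusted p 0.0303). P2rx7 is also known from microglia and oligodendrocyte-lineage cells, whose marker sums at P1 and P14 are given above. Summed microglia markers at P7 in cortex were 287, 947 and 316, replicate 2 being the highest for P2rx7 too. At P14 they were 92.4, 258 and 265 in hippocampus, where replicate 1 was the lowest for both. In the bulb at P14 they were 89.4, 230 and 129, where replicate 2 was the highest but the lowest for P2rx7. The part of these sums in the P2rx7 values was not tested.

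Adora1 was the adenosine receptor that rose at every step in cortex and the bulb. In the bulb its normalized read counts were 7.53, 13.2 and 7.17 at P1, 40.6, 70.1 and 31.4 at P7, and 288, 328 and 332 at P14. These ages did not overlap, and Adora1 rose there by 4.99 over the whole interval (SE 0.35, adjusted p 8.42e-07), a 34.0-fold higher mean. It rose by 2.20 from P1 to P7 (SE 0.35, adjusted p 0.00267) and by 2.79 from P7 to P14 (SE 0.35, adjusted p 8.98e-05). In cortex the values were 118, 138 and 135 at P1, 230, 196 and 215 at P7, and 421, 338, 352 and 305 at P14. Again no age overlapped another, and the steps were nearly equal, at 0.71 (SE 0.13, adjusted p 0.00127) and 0.72 (SE 0.13, adjusted p 3.98e-04), for 1.43 overall (SE 0.13, adjusted p 4.01e-07). In hippocampus the values were 31.3, 24.1 and 20.9 at P1, 95.4, 115 and 199 at P7, and 182, 123 and 296 at P14. Its rise there was called between P1 and P7, at 2.33 (SE 0.37, adjusted p 9.96e-04), and P7 and P14 overlapped (0.53, SE 0.37, adjusted p 0.303). Over the whole interval Adora1 rose by 2.86 in hippocampus (SE 0.37, adjusted p 6.46e-05).

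Adora2b, the adenosine receptor that needs more agonist, rose early in cortex and hippocampus and then levelled. In cortex its normalized read counts were 19.6, 26.4 and 8.47 at P1, 76.2, 130 and 82.5 at P7, and 68.9, 66.7, 86.1 and 97.1 at P14. In hippocampus they were 8.9, 7.13 and 11.1 at P1, 103, 78.8 and 59.6 at P7, and 106, 82.7 and 62.7 at P14. In both regions every P1 library lay below every later library, while P7 and P14 overlapped. The P1 to P7 change was 2.43 in cortex (SE 0.35, adjusted p 1.33e-04) and 3.01 in hippocampus (SE 0.37, adjusted p 1.72e-04), and the P7 to P14 change was -0.25 (SE 0.32, adjusted p 0.553) and 0.06 (SE 0.37, adjusted p 0.919). From P1 to P14 Adora2b rose by 2.19 in cortex (SE 0.32, adjusted p 4.95e-05) and by 3.07 in hippocampus (SE 0.37, adjusted p 4.09e-05). In the bulb it was 8.25, 5.72 and 4.96 at P1, 45.5, 25 and 5.34 at P7, and 39.8, 124 and 88.9 at P14. One P7 library, replicate 3, was still at the P1 level, and the P1 to P7 change of 1.46 (SE 0.68, adjusted p 0.226) did not pass, but passed at 2.28 (adjusted p 0.0253) without that library. The change from P7 to P14 was 1.97 (SE 0.68, adjusted p 0.0351), a call that was lost without any one of P7 replicate 2, P7 replicate 3, P14 replicate 2 or P14 replicate 3 (adjusted p 0.0569, 0.13, 0.0985 and 0.0792) or with only these ages fitted (0.0578). From P1 to P14 it rose by 3.42 (SE 0.68, adjusted p 0.00144).

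Adora2a, best known from neurons of the striatum, was low throughout. In cortex its normalized read counts were 5.4, 4.79 and 4.11 at P1, 12.1, 11.6 and 11.8 at P7, and 14, 11.9, 8.2 and 8.83 at P14. Every later library lay above every P1 library, but the gene was under the filter in cortex and hippocampus. With no filter its P1 to P14 change in cortex was 1.0 (adjusted p 0.0427). In hippocampus it was at 2.49, 4.9 and 7.37 at P1, 4.83, 7.51 and 1.89 at P7, and at 0, 0 and 44.8 at P14, so that 1 library held all reads of its group. In the bulb it was 8.25, 7.49 and 3.86 at P1, 1.84, 8.58 and 6.53 at P7, and 11.9, 8.27 and 37.5 at P14. Its P1 to P14 change of 1.2 there (SE 0.69, adjusted p 0.161) did not pass, but passed with quantile normalization (1.67, adjusted p 0.0327). The P7 to P14 change of Adora2a there, 1.5 (adjusted p 0.0975), passed with edgeR (1.87, adjusted p 0.0488), DESeq2 (1.86, adjusted p 0.0386) and quantile normalization (3.05, adjusted p 0.00135). Its mean over these bulb libraries, 10.5, was over the filter only through P14 replicate 3 (37.5), and its P1 and P7 means were 6.53 and 5.65.

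Entpd2, the ATP-cutting surface enzyme, rose in all 3 regions. In cortex its normalized read counts were 46, 69.3 and 67.2 at P1, 200, 216 and 156 at P7, and 330, 323, 262 and 396 at P14. These ages did not overlap, and Entpd2 rose by 1.64 from P1 to P7 (SE 0.19, adjusted p 2.42e-05), by 0.77 from P7 to P14 (SE 0.18, adjusted p 0.00298) and by 2.42 overall (SE 0.18, adjusted p 7.67e-08). In hippocampus it was 69.8, 95.3 and 47.9 at P1, 225, 238 and 199 at P7, and 195, 205 and 272 at P14. Its rise there was called from P1 to P7, at 1.67 (SE 0.26, adjusted p 7.94e-04), and the later change was 0.01 (SE 0.26, adjusted p 0.982). In the bulb it was 10, 13.7 and 15.4 at P1, 76.2, 70.1 and 17.2 at P7, and 173, 109 and 128 at P14. Values of the P7 libraries differed widely, replicate 3 lying just above P1. Entpd2 rose by 3.28 from P1 to P14 in the bulb (SE 0.50, adjusted p 2.33e-04). The steps there were 1.74 (SE 0.50, adjusted p 0.0496) and 1.54 (SE 0.50, adjusted p 0.0266): the first call was lost without any one P1 or P7 library other than P7 replicate 3 (adjusted p 0.105 to 0.223) and with TMM (0.0545), quantile normalization (0.0511), no filter (0.0639) or a pseudocount of 0.1 (0.0576), and the second without P7 replicate 3 or P14 replicate 1 (adjusted p 0.0711 and 0.0718).

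Nt5e, which makes adenosine from AMP, stayed low in all 3 regions. In cortex its normalized read counts were 7.96, 13.3 and 7.7 at P1, 22.5, 12.4 and 15.9 at P7, and 11.3, 18.2, 24.9 and 5.19 at P14, with a P1 to P14 change of 0.43 (SE 0.48, adjusted p 0.446), which passed with quantile normalization (1.37, adjusted p 0.0131). In the bulb they were 2.51, 5.72 and 4.96 at P1, 25.8, 15 and 6.53 at P7, and 19.9, 2.76 and 22.2 at P14. P7 lay above P1 there without overlap, but the change of 1.51 (SE 0.77) had an adjusted p of 0.273, and the P1 to P14 change was 1.23 (SE 0.77, adjusted p 0.193), which passed at 2.08 (adjusted p 0.0124) without P14 replicate 2 and with DESeq2 (1.84, adjusted p 0.0431). In hippocampus, where it was under the filter, it was 9.26, 4.46 and 14.7 at P1, 3.62, 10.6 and 8.52 at P7, and 0, 0 and 3.58 at P14. Every hippocampus P14 library held 3 reads or fewer of Nt5e, and against a limit of 3 reads per library the P14 level was at least 1.77-fold lower than the P1 mean and at least 1.41-fold lower than the P7 mean. Without the highest library, P1 replicate 3 or P7 replicate 2, these limits were 1.28-fold and 1.13-fold. With no filter Nt5e fell in hippocampus from P1 to P14 (-2.53, adjusted p 0.0226), the one lower call among the 8 genes over that interval, and its P7 to P14 change was -2.27 (adjusted p 0.0505). These P14 libraries held 2539583 to 4248087 reads, and the P7 libraries 4002881 to 5542610.

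Adk, the adenosine-clearing kinase, rose in all 3 regions. Its estimated step after P7 was the larger in each, but in limma the difference between steps passed in cortex only, as given below. In the bulb that difference was 0.89 (SE 0.49, limma adjusted p 0.243). In cortex its normalized read counts were 65.1, 61.2 and 82.4 at P1, 126, 126 and 110 at P7, and 678, 572, 595 and 551 at P14. In hippocampus they were 45.9, 72.2 and 71.9 at P1, 104, 107 and 122 at P7, and 446, 770 and 580 at P14. In the bulb they were 21.2, 20.7 and 23.7 at P1, 59.6, 37.2 and 32.6 at P7, and 139, 154 and 149 at P14. These 3 ages did not overlap in any region. From P7 to P14 Adk rose by 2.30 in cortex (SE 0.13, adjusted p 3.45e-08), 2.39 in hippocampus (SE 0.25, adjusted p 6.52e-05) and 1.80 in the bulb (SE 0.28, adjusted p 4.22e-04). The earlier step was smaller: 0.80 in cortex (SE 0.14, adjusted p 6.77e-04), 0.83 in hippocampus (SE 0.25, adjusted p 0.04) and 0.90 in the bulb (SE 0.28, adjusted p 0.0667). The hippocampus call for this step was lost when any 1 of the 6 P1 and P7 libraries was left out (adjusted p 0.0553 to 0.163) and with no filter (0.0524), and the bulb value passed with edgeR (0.97, adjusted p 0.0403) and DESeq2 (1.01, adjusted p 0.00593). Over the whole interval Adk rose by 3.10 (SE 0.13, adjusted p 3.55e-10), 3.21 (SE 0.25, adjusted p 1.01e-06) and 2.70 (SE 0.28, adjusted p 1.50e-05).

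Whether the early and late steps differ was tested for each gene within a region, as the P7 to P14 change minus the P1 to P7 change. In cortex 2 of 7 tested purine genes differed, where 23% of all tested genes did: Adora2b moved early (-2.68, SE 0.59, adjusted p 0.00526) and Adk late (1.51, SE 0.24, adjusted p 6.05e-04). Entpd2 in cortex (-0.87, adjusted p 0.0712) passed with quantile normalization (-0.97, adjusted p 0.0485). In hippocampus 1 of 6 differed, where 5.99% of all tested genes did: Adora2b moved early (-2.95, SE 0.65, adjusted p 0.0223). Hippocampus Entpd2 (-1.66, SE 0.45, adjusted p 0.0507) and Adk (1.56, SE 0.43, adjusted p 0.0576) came just outside the threshold, and both passed with edgeR (adjusted p 0.0446 and 0.033) and DESeq2 (0.0097 and 0.0043). The hippocampus Adora2b call rests on all 3 P7 libraries: without replicate 1, 2 or 3 of P7 it was -2.56, -2.94 and -3.34 with adjusted p of 0.169, 0.138 and 0.0634, and no purine gene was then called. The share of all genes called moved too, between 0.78% and 9.82% with 1 library left out. The hippocampus count was 2 without P1 replicate 1, P1 replicate 2 or P14 replicate 1, and 3 without P14 replicate 3. In the bulb limma called 0 of 8, where 16.1% of all tested genes were called. There 1 of 8 had an unadjusted p under 0.05 in limma, against 3548 of 11490 tested genes. On recovered reads edgeR called 0 and DESeq2 called 1, P2rx7 (-2.16, adjusted p 0.0297). Adora2a passed with quantile normalization (4.44, adjusted p 0.0127). P2rx7 also passed in limma without P14 replicate 2 or P14 replicate 3 (-1.77 and -2.67, adjusted p 0.045 and 0.0327).

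**Figure D2:**
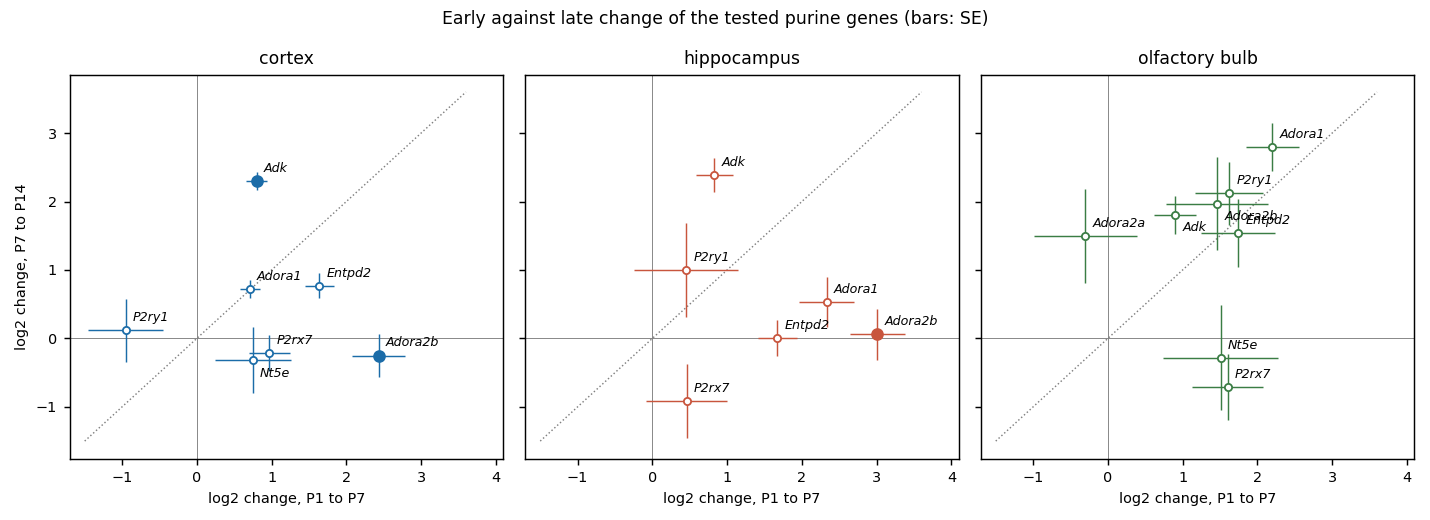
The log2 change from P1 to P7 (horizontal axis) against that from P7 to P14 (vertical axis) for the purine genes tested in each region, with bars of 1 SE and a dotted line where both changes are equal. Filled points passed the test of the difference between the 2 changes: Adora2b, to the right at 2.43 in cortex and 3.01 in hippocampus, and Adk, high at 2.30 in cortex.

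By step, 5 of 7 purine genes rose in cortex from P1 to P7 (15.6% of all tested genes rose) and 3 of 7 from P7 to P14 (18.6%). In hippocampus 4 of 6 rose in the first step (11.2% of all tested genes) and 1 of 6, Adk, in the second (12.5%). In the bulb 3 of 8 rose in the first step (7.59% of all tested genes) and 5 of 8 in the second (20.4%). None fell in any step. The first count in the bulb was 1 when any P1 or P7 library other than P7 replicate 3 was left out and 5 without P7 replicate 3, and the second was 3 without P7 replicate 3. That library had the lowest summed astrocyte markers of its group, 10145 against 14544 and 18651, a value whose part in the counts was not tested.

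Levels were set against each other only per kilobase of exon, within a group. All annotated exonic bases of a gene were counted (2128 for Entpd2, 8526 for Adk and 8602 for Nt5e), so the order depends on annotated length. Of the Entpd2 bases 612 are shared with Npdc1, and reads there could belong to either. Entpd2 had the highest mean per kilobase of the 8 genes at P1, P7 and P14 in all 3 regions, going from 28.6 at P1 to 154 at P14 (cortex), 33.4 to 105 (hippocampus) and 6.13 to 64.2 (the bulb). Its range overlapped that of the next gene in cortex at P1 and in the bulb at P7 and P14. In cortex the order at P1 was Entpd2, Adora1 (22.6), Adora2b (9.85), Adk (8.16), P2rx7 (6.82), P2ry1 (6.51), Adora2a (1.56) and Nt5e (1.12), and the ranges of the neighbours from Adora2b to P2ry1 overlapped. At P14 Adk (70.3) and Adora1 (61.2) came next to Entpd2 with overlapping ranges, ahead of Adora2b (43.2) and P2rx7 (11.6). In hippocampus Adk went from 7.43 at P1, below P2rx7 at 12.4, to 70.2 at P14, above P2rx7 at 11.2. In the bulb Adora1 went from 1.61 at P1, with a range overlapping those of its neighbours Adora2a and P2ry1, to 54.6 at P14, where it stood next to Entpd2. Nt5e had the lowest mean in each of these 9 groups, at 1.97 per kilobase or less.

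Likeness of pattern was measured as Pearson's r of log2 values over the 10, 9 and 9 libraries of the developmental tables, averaged over the regions. These r values are over libraries that fall into age groups, share a table and differ in depth, and are given as descriptions. Among the members, Adora1 and Entpd2 were most alike (mean r 0.93), followed by Adora1 with Adk and Adora2b with Entpd2 (0.88 each). Adora2b and Adk were less alike (0.72), and P2ry1 with Adora1 differed by region (-0.44 in cortex, 0.54 in hippocampus and 0.98 in the bulb). Among 4907 candidate genes, the closest to Adora1 were Lcat (0.98), Mgll (0.97) and Ank (0.97), and genes close to Adk included Chst2 and Ank2 (0.98 each). Entpd2 was closest to AI464131, Tpcn1 and Gramd3 (0.96 each), and Adora2b to Ctsl (0.94), Ddhd1 (0.93) and Vcam1 (0.93). For P2ry1 the values were lower, with Tenm3 (0.71), Gucy1a3 (0.70) and Lsm6 (0.68), and for P2rx7 with Ss18 (0.72), Ptgds (0.67) and Ap1b1 (0.66).

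A further 42 genes of purine receptors, enzymes, transporters and release were listed to show what surrounds these 8. From P1 to P14, 7 rose and 6 fell of the 23 tested in cortex, 8 rose and 3 fell of 22 for hippocampus, and 7 rose and 6 fell of 21 for the bulb. The shares of all tested genes that fell were 40.3%, 28.5% and 31.4%, and those that rose are given above. For a rise or a fall in all 3 regions no share of all tested genes is given here. The medians of the listed genes were 0.13, 0.34 and 0.61. Of the receptors, P2ry12, an ADP receptor typical of microglia, rose in all 3 regions, by 2.88 in cortex (SE 0.35, adjusted p 7.42e-06), 3.21 in hippocampus (SE 0.53, adjusted p 3.75e-04) and 3.32 in the bulb (SE 0.35, adjusted p 1.62e-05). P2ry13 rose in cortex (1.28, adjusted p 0.0337).

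Among surface enzymes Alpl, a phosphatase that can turn AMP into adenosine, rose in all 3 regions (1.14, 2.38 and 3.05, adjusted p 8.54e-05, 4.67e-04 and 1.51e-05). Its P1 means of 66.2, 18.6 and 13.3 became 148, 108 and 118 at P14. Entpd1, which cuts ATP and ADP, rose in hippocampus (2.25, adjusted p 0.00252) and Enpp1 in the bulb (1.84, adjusted p 0.0332). Inside the cell, Pnp, which splits inosine and guanosine, rose by 2.05, 1.59 and 2.34 (adjusted p 2.91e-07, 6.07e-05 and 1.74e-05) and Ampd3, which deaminates AMP, by 1.04, 2.72 and 3.24 (adjusted p 1.49e-04, 1.38e-06 and 6.18e-06). Hprt, which salvages hypoxanthine, fell in cortex (-0.82, adjusted p 0.00358) and the bulb (-1.67, adjusted p 0.0474), though its cortex call was lost with quantile normalization (-0.43, adjusted p 0.0732). Ahcy, which releases adenosine from S-adenosylhomocysteine, fell in the same regions (-1.17, adjusted p 4.86e-04, and -1.99, adjusted p 0.00954). Nt5c2, a cytosolic nucleotidase, rose in hippocampus (0.78, adjusted p 0.0146) and fell in the bulb (-0.72, adjusted p 0.00843).

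The transporters moved apart. Slc29a3, a nucleoside transporter of intracellular membranes, rose in all 3 regions (2.00, 2.42 and 1.37, adjusted p 3.26e-08, 3.66e-07 and 9.86e-05), with a mean of 608 at P14 in both cortex and hippocampus. Slc29a4 fell in all 3 (-4.85, -2.10 and -3.47, adjusted p 2.68e-07, 0.00258 and 6.81e-06), from a mean of 165 to 5.5 in cortex. Slc29a1, the main equilibrative transporter of the cell surface, fell in cortex (-1.44, adjusted p 8.88e-04) and hippocampus (-2.82, adjusted p 0.00376), the latter call being lost with quantile normalization (-1.35, adjusted p 0.0766). Of the ATP release channels, Panx1 fell in all 3 regions (-3.11, -5.01 and -3.17, adjusted p 4.62e-07, 0.00121 and 9.64e-06). Lrrc8a, a subunit of the volume-regulated anion channel, rose by 1.15, 1.09 and 1.22 (adjusted p 9.99e-06, 9.65e-04 and 3.63e-04), and Panx2 fell in cortex (-1.12, adjusted p 0.0243), a call lost under TMM scaling (-0.85, adjusted p 0.0744) and quantile normalization (-0.50, adjusted p 0.274). Most neuron markers fell and most tested microglia markers rose over the same interval, as given above, and their part in these changes was not tested.

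**Figure D3:**
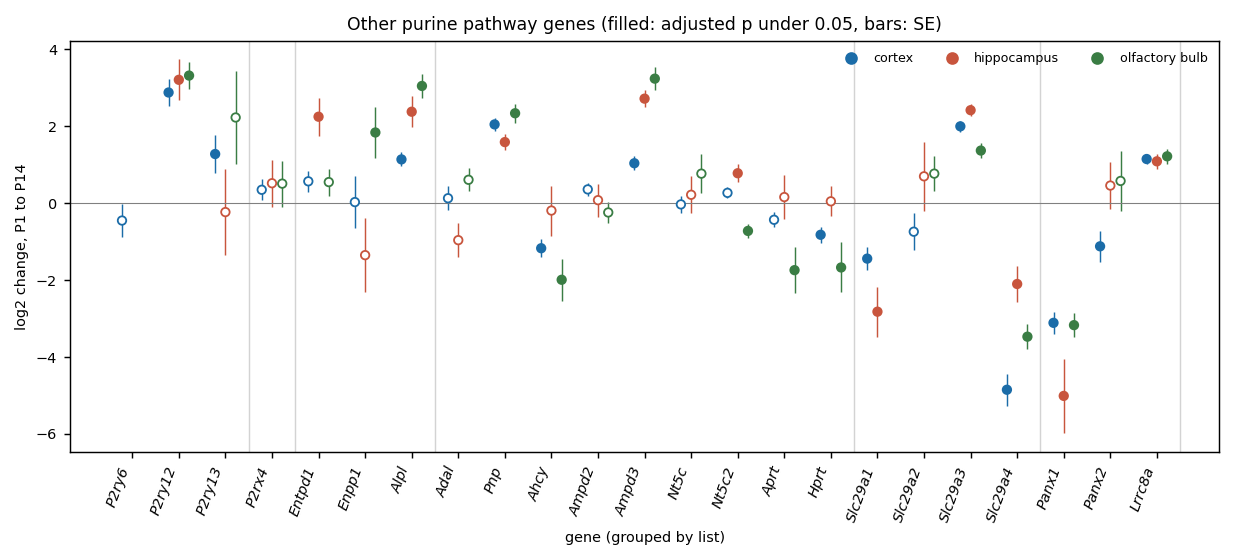
The log2 change from P1 to P14 of the other purine genes that passed the filter, grouped by list along the horizontal axis, with a point per region, bars of 1 SE and filled points for adjusted p under 0.05. P2ry12, Alpl, Pnp, Ampd3, Slc29a3 and Lrrc8a are above 0 and filled in all 3 regions, and Slc29a4 and Panx1 below 0 and filled in all 3.

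At P28 the targeted gene checked the labels. Gabbr1 in cKO libraries was at 9.23% of the control mean in cortex, 29.8% in hippocampus and 34.9% in the bulb, and the genotypes did not overlap in any region. No purine gene was called between genotypes in any region with limma: the counts were 0 of 5 tested (cortex), 0 of 7 (hippocampus) and 0 of 7 (the bulb), where 0.00982%, 0% and 0% of all tested genes were called. As 0% were called in hippocampus and the bulb, the targeted Gabbr1 was not called there either. These counts therefore do not show that the purine genes were unchanged. At an unadjusted p under 0.05 limma gave 0, 0 and 1, the last being Entpd2. Of all tested genes 221 of 10188, 296 of 11639 and 349 of 11539 were under that limit. On recovered reads edgeR and DESeq2 called 0 in cortex and hippocampus, with 0 and 1 at an unadjusted p under 0.05, and neither was run in the bulb. None of the 42 listed genes was called in any region either. In limma 0 of 18, 3 of 19 and 0 of 21 tested had an unadjusted p under 0.05, and the counts over all tested genes are those above.

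Adora1 at P28 in cortex was 131, 218, 149 and 169 in controls and 156, 131, 166 and 101 in cKO libraries. The genotypes overlapped, and the difference was -0.27 on the log2 scale (95% interval -0.80 to 0.27). Adk in cortex was 465, 537, 344 and 340 in controls and 533, 363, 390 and 296 in cKO libraries, a difference of -0.10 (95% interval -0.58 to 0.39). Entpd2 in cortex was 97.2, 139, 157 and 138 against 83, 125, 188 and 192, a difference of 0.09 (95% interval -0.54 to 0.71). These 3 intervals stay within 1 log2 unit of no difference. Adora2b was 34.9, 67.7, 73.4 and 95.4 against 39.3, 60.8, 52.7 and 98.8 (-0.10, 95% interval -0.90 to 0.69), and P2rx7 was 31.7, 15.2, 46 and 58.8 against 35.9, 21, 13.6 and 68.1 (-0.22, 95% interval -1.36 to 0.93). With the round of deposit, which coincides with the tamoxifen label, as a covariate the signs of these last 2 turned, to 0.11 and 0.13, and among the 5 libraries of the earlier round Adora2b was at 0.04. The summed microglia markers were 54.9, 71.2, 593 and 319 in controls and 76.3, 45.1, 55.9 and 945 in cKO libraries. Their part in the P2rx7 values was not tested. P2ry1, Adora2a and Nt5e were under the filter in cortex, at 0 to 8.64, 0 to 23.2 and 0 to 18 over all 8 libraries, with overlapping genotypes.

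In hippocampus Adk was 299 and 256 in controls and 509, 614, 418 and 255 in cKO libraries, a difference of 0.63 (95% interval -0.20 to 1.45, limma adjusted p 0.936). Adora1 was 132 and 109 against 229, 243, 141 and 116 (0.53, 95% interval -0.36 to 1.42), and Entpd2 was 66.5 and 115 against 164, 49.1, 192 and 170 (0.54, 95% interval -0.74 to 1.82). In each of these 3 genes 3 of 4 cKO libraries lay above both controls and 1 below the higher or lower control, so the genotypes overlapped. Without cKO replicate 2, the library nearly free of Rn45s, the differences were 0.45, 0.37 and 0.99. Adora2b was 58.7 and 87.2 against 43.6, 63.6, 65.5 and 109 (-0.10), P2rx7 32.9 and 40.9 against 26.1, 10.1, 45.5 and 48.5 (-0.38, and 0.08 without that library), P2ry1 1.56 and 16.9 against 17.4, 10.1, 6.39 and 7.7 (0.66), and Adora2a 0 and 7.12 against 0, 0, 1.6 and 1.54. The summed astrocyte markers of the same libraries were 153040 and 167095 in controls and 228858, 363862, 174310 and 119063 in cKO libraries, and the summed ependymal and choroid plexus markers ranged from 62136 to 128222 in controls and from 9676 to 121815 in cKO libraries. Their part in these values was not tested.

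In the bulb Entpd2 was 146, 64.7 and 195 in controls and 239, 236 and 216 in cKO libraries. The genotypes did not overlap, with a difference of 0.90 (95% interval 0.05 to 1.76, limma p 0.0405, adjusted p 0.877). Without control replicate 2, the library nearly free of Rn45s and the lowest for Entpd2, the difference was 0.45. Npdc1, which shares exonic bases with Entpd2, had a mean of 44.6 in controls (25.5 to 62.5) and 63.6 in cKO libraries (52.8 to 76.5). Its part in the Entpd2 values was not tested. Adk was 180, 133 and 134 against 201, 193 and 184, also without overlap, a difference of 0.38 (95% interval -0.21 to 0.98, adjusted p 0.877). Adora1 was 325, 706 and 269 against 260, 240 and 358 (-0.49, and -0.07 without control replicate 2, whose value was the highest), and Adora2b 31, 133 and 71 against 71.3, 67.7 and 102 (0.24, and 0.74 without that library). P2ry1 was 91.9, 136 and 119 against 99.7, 75.7 and 172 (-0.07), P2rx7 50.5, 44.3 and 87.1 against 73.1, 81.6 and 78.2 (0.41), and Adora2a 18.4, 0 and 16.1 against 4.3, 28.9 and 6.52 (0.62, and -0.78 without control replicate 2).

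Nt5e was low in controls and higher in cKO libraries in hippocampus and the bulb, without a call. In hippocampus it was 0.782 and 2.67 in controls and 5.81, 28.9, 12 and 10.8 in cKO libraries, which did not overlap. In recovered reads this was 1 and 3 against 6, 20, 15 and 14. Against a limit of 3 reads per library the cKO mean was at least 5.38-fold higher, or at least 3.57-fold higher without cKO replicate 2, the highest and the library nearly free of Rn45s, and limma gave 2.38 (95% interval -0.20 to 4.96, adjusted p 0.936). In the bulb, where Nt5e was under the filter, it was 0, 0 and 1.89 in controls and 33.5, 13.9 and 2.17 in cKO libraries, at least 3.24-fold higher on the same limit, or at least 1.58-fold higher without cKO replicate 1, and 1 cKO library itself held 3 reads. In cortex the values were 2.11, 0, 7.67 and 13.1 in controls and 18, 10.5, 0 and 17.3 in cKO libraries, which overlapped. Summed endothelial markers of the bulb were 75.8, 95.3 and 216 in controls and 303, 275 and 141 in cKO libraries. Summed mural and fibroblast markers there were 379, 436 and 718 against 760, 495 and 548. In hippocampus the endothelial sums were 422 and 451 against 602, 464, 286 and 422. The part of these markers in the Nt5e values was not tested. Of the genes tested, 0 of 5 in cortex, 1 of 7 in hippocampus (Nt5e) and 2 of 7 in the bulb (Entpd2 and Adk) had genotypes that did not overlap, where the share of all tested genes was 1.89%, 15% and 10%. Nt5e was among the genes tested in hippocampus only through its cKO libraries. Its mean over all P28 libraries there was 10.2, just over the filter, with 1.73 in controls and 14.4 in cKO libraries. The untested Nt5e of the bulb did not overlap either, by 2 reads in the highest control against 3 reads in the lowest cKO library.

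**Figure D4:**
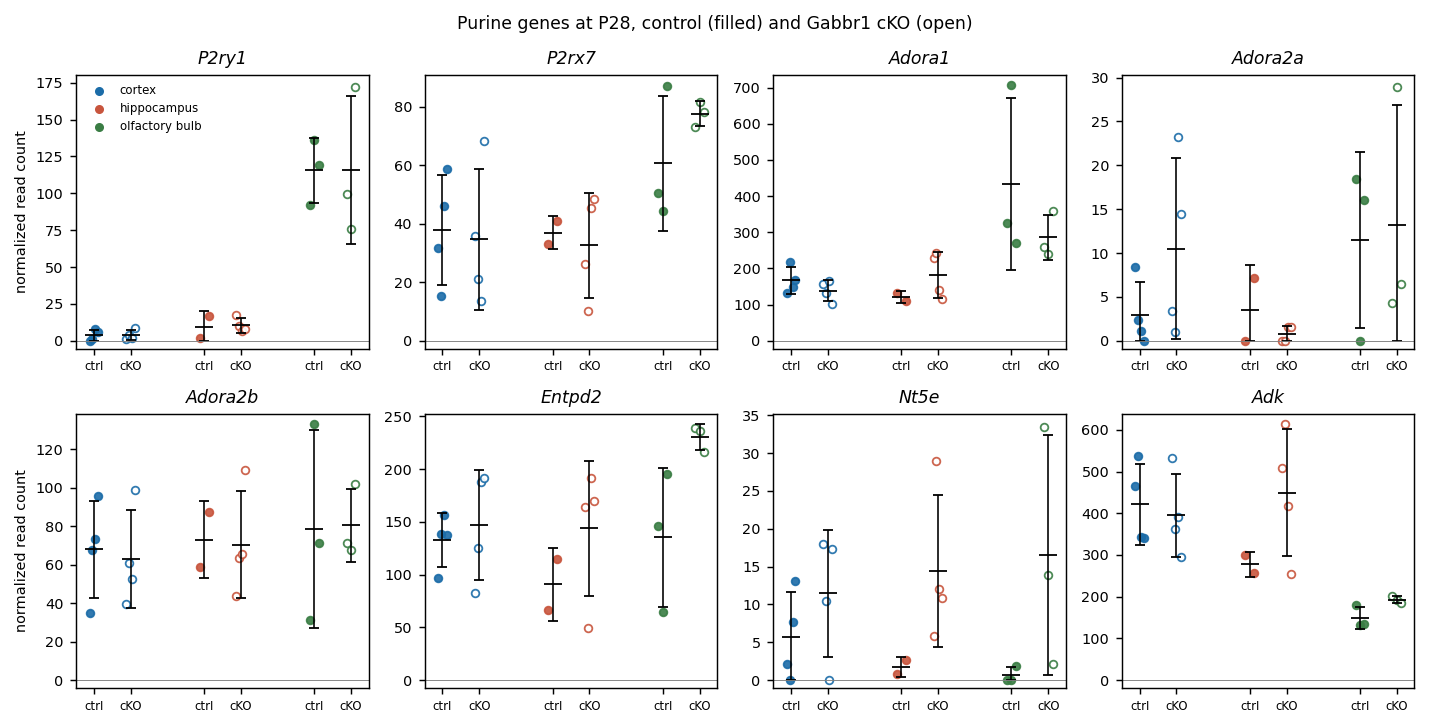
Normalized read counts of the 8 genes at P28 in control (filled) and Gabbr1 cKO (open) libraries of cortex, hippocampus and olfactory bulb, with a point per library, a bar at the mean and whiskers of 1 SD that stop at 0. Genotypes overlap in all panels except Nt5e in hippocampus and Nt5e, Entpd2 and Adk in olfactory bulb, and none of these passed the test.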

How the data were processed

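The 6 tables hold deposited values of unit signal: read counts that the authors divided by one factor per library. Per the submitters' processing notes, FastQC, MultiQC, STAR 2.5.0a, DESeq2 1.20.0 and mm10 were used. Per the labels' protocols, a low-input kit (Nugen Trio) made the libraries. The counting program, strand setting and annotation are not given in the sources used here. In 47 of 48 libraries the values gave back whole reads (tolerance 0.01 read). Tables were scaled apart, so no test crosses them. In 5 of these files, 27 symbols that had turned into dates were restored, and none is named here.

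Genes with a table mean of at least 10 were fitted on log2(value + 1) with limma 3.58.1 (R 4.3.3, eBayes with trend), with 1 fit per table and Benjamini-Hochberg adjustment over all genes. A fold change on this scale understates the change of low genes. The script was tested on simulated data with 200 changed genes. For the P28 comparisons of cortex, hippocampus and the bulb, limma called 1%, 0% and 0% of simulated 2-fold changes. It called 62.5%, 28.5% and 44% of simulated 4-fold changes. From P1 to P14 in the same regions it called 54%, 21.5% and 22.5% of 2-fold and 92%, 70.5% and 80.5% of 4-fold changes. False genes made up 7.69%, 14% and 4.26% of the P1 to P14 calls with 2-fold changes and 3.66%, 5.37% and 3.01% with 4-fold changes. With 4-fold changes at P28 they made up 3.85%, 12.3% and 8.33%. As alternatives, the pseudocount was set to 0.1 or 8, the filter was dropped or raised to 30, TMM or quantile scaling was applied, edgeR 4.0.16 (quasi-likelihood) and DESeq2 1.42.0 were run on recovered reads, only the ages compared were fitted, the round of deposit entered the cortex P28 fit, and each library was left out once. Named genes are the 8 members, pathway genes called alike in all 3 regions, up to 3 more called genes per list and region with the highest means, and the 3 genes most like each member, of which 1 is not reported here. Members and lists were chosen with earlier results of these data known. Replicate numbers follow accession order and pair nothing.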

Additional observations from a re-analysis of the deposited data

Results flagged for a closer look

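In 3 cases the change of a gene in the second week differed from its change in the first week by a test of that difference in limma. Adora2b in cortex had a P7 to P14 change that was 2.68 lower than its P1 to P7 change on the log2 scale (-2.68, adjusted p 0.00526), and in hippocampus the value was -2.95 (adjusted p 0.0223). Adk in cortex had the opposite sign, with a later change larger by 1.51 (adjusted p 6.05e-04). In groups of 4 libraries no library stood apart from the others by Dixon's criterion, in 32 checks of a gene within a group, where chance alone flags about 1 in 20.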

How the results depend on the processing

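Over 1557 values of a gene under an alternative, 1424 kept their direction and their side of the threshold, 48 passed newly, 39 no longer passed and 46 changed sign, the last all among results that had not passed. Adora1, Adora2b, Entpd2 and Adk kept their P1 to P14 call in all 3 regions under every alternative run. The cause of the changes below was not tested. edgeR and DESeq2 were not run for the olfactory bulb at P28, where the step between values of 1 library was too close to 1 to tell recovered reads from unscaled ones, and at 1 to 3 reads per library Nt5e and Adora2a are limited by depth. No paired analysis was possible because the labels carry no replicate numbers.

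Quantile normalization turned the sign of Nt5e from P7 to P14 in cortex (0.33) and olfactory bulb (0.86), of P2ry1 from P1 to P7 in hippocampus (-0.10), of Entpd2 from P7 to P14 in hippocampus (-0.10) and of the difference between steps of Adora1 in cortex (-0.04). For Adora2b in olfactory bulb the difference between steps was -0.12 with edgeR and -0.22 with DESeq2. With the round of deposit as a covariate the cortex P28 differences were 0.13 for P2rx7 and 0.11 for Adora2b, and in the earlier round alone Adora2b was at 0.04.

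Of the counts of purine genes called, the one from P7 to P14 in hippocampus was 2 with quantile normalization, against 1. The count from P1 to P7 in olfactory bulb, 3 as reported, was 1 without a filter and with TMM, 5 with edgeR, 6 with DESeq2 and 6 with only the 2 ages fitted, and 1 to 5 with a library left out. The later count there, 5 as reported, was 3 to 5 with a library left out. The count of genes whose steps differed in hippocampus, 1 as reported, was 3 with a pseudocount of 8, with edgeR and with DESeq2, 2 without a filter, with a minimum mean of 30 and with quantile normalization, and 0 to 3 with a library left out. In olfactory bulb, 0 as reported, it was 1 with quantile normalization and with DESeq2, and 0 to 1 with a library left out.

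Leaving out 1 library at a time changed the sign of these values. From P7 to P14 in cortex P2ry1 ran from -0.11 to 0.40 and Nt5e from -0.62 to 0.07, in hippocampus Adora2b from -0.14 to 0.26 and Entpd2 from -0.14 to 0.10, and in olfactory bulb Nt5e from -0.76 to 0.57. From P1 to P7, P2ry1 in hippocampus ran from -0.31 to 1.06 and Adora2a in olfactory bulb from -0.65 to 0.23, and from P1 to P14 P2rx7 in hippocampus ran from -0.92 to 0.32. The difference between steps ran from -0.11 to 0.12 for Adora1 in cortex, from -0.06 to 1.30 for P2ry1 in hippocampus, and in olfactory bulb from -0.04 to 1.31 for P2ry1, from -1.13 to 1.75 for Adora2b and from -1.55 to 0.53 for Entpd2. At P28 the cortex ranges were -0.62 to 0.13 for P2rx7, -0.39 to 0.09 for Adora2b, -0.07 to 0.33 for Entpd2 and -0.25 to 0.03 for Adk. In hippocampus they were -0.74 to 0.84 for P2ry1, -0.64 to 0.08 for P2rx7 and -0.38 to 0.18 for Adora2b, and in olfactory bulb -0.39 to 0.19 for P2ry1, -0.78 to 1.36 for Adora2a and -0.29 to 0.74 for Adora2b.

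The percentage of all genes called moved by over 1.5 times in 7 comparisons across ages, with these ranges over the alternatives and then over leaving out a library. From P1 to P7 it ran from 20.2 to 41.6 and from 25.1 to 30.6 in cortex (33.7 as reported), from 12.1 to 36.9 and from 11.8 to 12.9 in hippocampus (18.1), and from 6.94 to 31.0 and from 4.54 to 12.1 in olfactory bulb (10.6). From P7 to P14 in hippocampus it ran from 20.6 to 33.9 and from 17.4 to 35.7 (30.1). For the difference between steps it ran from 12.7 to 29.0 and from 15.0 to 23.3 in cortex (23.0), from 4.85 to 12.2 and from 0.78 to 9.82 in hippocampus (5.99), where each of the 9 libraries moved it by that much, and from 13.3 to 25.8 and from 6.84 to 24.0 in olfactory bulb (16.1). At P28 it stayed at or under 0.0307 in all settings run.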
